A study of Homo sapiens with 6 samples.

Results

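The genes described here encode the protein-folding machinery of the endoplasmic reticulum (ER) and the unfolded protein response that controls it. The set was given as a list of 36 gene symbols, and all 36 were found among the 62700 genes of the count tables. They were divided by role into 7 stress sensors and signal transducers, 11 chaperones and co-chaperones, 8 oxidative and prolyl folding enzymes, 8 components of ER-associated degradation, and 2 genes of protein translocation into the ER and export from it. All 36 had enough counts to be tested. The measurements are RNA sequencing of OVCAR8, an established human ovarian carcinoma cell line with the genotype label WT. Cells were starved of serum overnight in all libraries, and then received PBS (Control, 3 libraries) or leptin, a hormone made by adipocytes, for 24 h at a dose of 100 ng/ml (Leptin, 3 libraries). The study asked which transcripts change after leptin, in a search for genes tied to stem-like behaviour of these cells. No label says that the replicates were grown as separate cultures, and the p-values therefore rest on a spread among libraries that may be technical.

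Proteins that are secreted or carried in membranes fold in the ER. There chaperones of the HSP70 and HSP90 families hold unfolded chains, lectin chaperones hold glycoproteins, and protein disulphide isomerases form and rearrange disulphide bonds. When unfolded chains accumulate, the sensors IRE1 (gene ERN1), PERK (EIF2AK3) and ATF6 signal to the nucleus. IRE1 splices the XBP1 messenger, ATF6 is cut to release a transcription factor, and both routes raise chaperone and degradation genes. PERK phosphorylates the translation factor eIF2-alpha, which lowers protein synthesis and raises ATF4 and its targets, and a phosphatase with the regulatory subunit PPP1R15A (GADD34) reverses that phosphorylation. Other kinases phosphorylate the same factor, so ATF4 targets are not specific to the ER. Splicing of XBP1, cutting of ATF6 and phosphorylation are not visible in counts per gene.

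Each library held between 15609425 and 18577775 counts assigned to genes. Of the ovarian carcinoma markers PAX8 stood at 364 CPM in controls (counts relative to the library total scaled by TMM), KRT8 at 2138 CPM and KRT18 at 410 CPM, while EPCAM was at 3.98 CPM, WT1 at 2.39 CPM and MUC16 at 0.159 CPM. On the first principal component (49.6% of the variance) the controls lay between -30.99 and -23.6 and leptin replicate 1 at -2.15, while the other leptin libraries had scores of 46.3 (replicate 2) and 39.6 (replicate 3). On the second (18.6%) leptin replicate 1 lay at -40.01, while leptin replicates 2 and 3 lay at 19.6 and -6.13 and the controls between 5.95 and 12.9. The 6 markers of plasma cells, a cell type with an enlarged ER, summed to between 217.9 and 253.7 CPM in controls and 218.2 and 228.5 CPM with leptin. Nearly all of this was SDC1, a surface proteoglycan gene of many epithelial cells too, which was tested together with PRDM1, and neither was called in edgeR. The defining genes JCHAIN, MZB1 and TNFRSF17 lay at or below 0.124 CPM in every library, and IRF4 at or below 0.267 CPM. Of 9 immune markers 1 was expressed enough to be tested, and of 6 endothelial markers 2.

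Among the 36 genes, 6 fell and 1 rose with leptin. The 6 were the ER HSP90 chaperone HSP90B1, the disulphide isomerases PDIA3, PDIA4 and PDIA6, the oxidase ERO1A and the vesicle coat gene SEC24D, and the 1 was PPP1R15A. A gene counts as risen or fallen here when edgeR's quasi-likelihood p, adjusted over all 15685 tested genes, is below 0.05. Over all tested genes 4.09% were called lower and 5.71% higher. The log2 ratio of leptin to control was below 0 for 29 of the 36. Its median was -0.28 in the set and 0.01 over all tested genes. In 20 of the 36 every leptin library lay below every control library, and in 2 (ERN1 and PPP1R15A) every leptin library lay above, beside 16.2% and 16% of all tested genes. Summed over the 36 genes, the level was 6511, 6582 and 6553 CPM in the controls and 5556, 4778 and 4605 CPM in leptin replicates 1, 2 and 3. In bulk libraries a lower level in each cell and a loss from some of the cells cannot be told apart. When the trend of counts with GC content was removed in each library, again 6 genes were called lower and 1 higher, beside 2.82% and 2.72% of all tested genes, and 4 of the 6 were shared. The set's median was then -0.22, and 27 of the 36 were below 0.

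**Figure D1:**
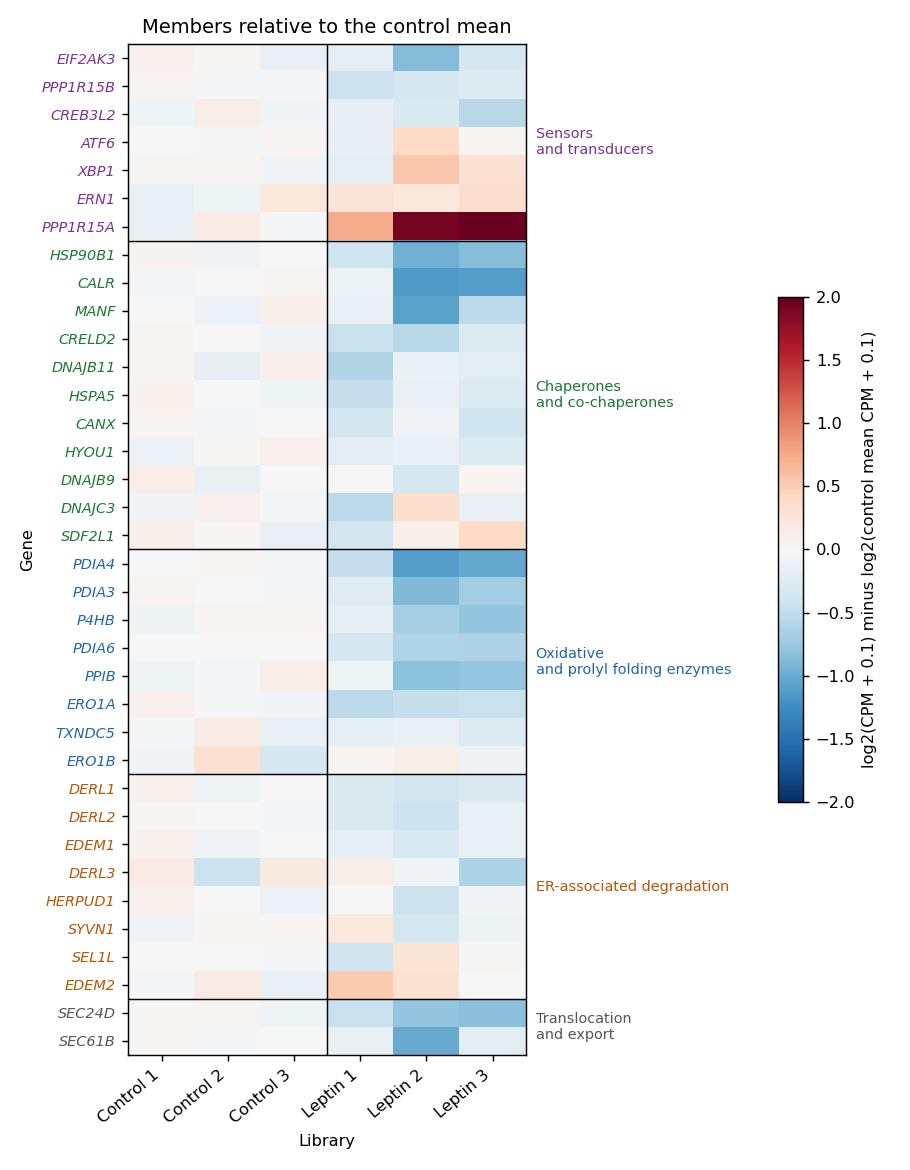
Heat map of the 36 genes (rows, grouped and coloured by role, ordered by fold change within a role) in the 6 libraries (columns). Colour gives log2(CPM + 0.1) minus the same for the control mean. The controls are near white, the disulphide isomerases are blue in leptin replicates 2 and 3 and paler in replicate 1, and PPP1R15A is red in all 3 leptin libraries.

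The 3 leptin libraries did not move alike. In 23 of the 36 genes all 3 lay below the control mean and in 2 all 3 lay above it. For ATF6, XBP1, SDF2L1 and SEL1L replicate 1 lay below the control mean while replicates 2 and 3 lay above, and for HERPUD1, SYVN1 and DERL3 the signs were opposite. The median difference of the 36 genes from the control mean was -0.19, -0.34 and -0.27 in leptin replicates 1, 2 and 3 on the log2 scale. For the 8 oxidative and prolyl folding enzymes it was -0.22, -0.63 and -0.66, and for the 11 chaperones -0.37, -0.15 and -0.27. Calls shifted with single libraries. Without leptin replicate 1, 16 of the genes were called lower and 2 higher, and all 7 earlier calls were among them. Over all 16101 genes tested in that fit, 2178 were called lower and 2583 higher. Without leptin replicate 2, 5 were called lower, without PDIA3, beside 378 lower and 410 higher over all tested genes. Without leptin replicate 3 or without Control replicate 1 or Control replicate 3 none of the 36 was called in edgeR. In those fits 18, 14 and 15 of them were at an unadjusted p under 0.05. Over all tested genes the same 3 fits called 121, 60 and 89 lower and 147, 55 and 81 higher. In the fit of all 6 libraries 19 of the 36 and 4334 of 15685 genes had an unadjusted p under 0.05. Without Control replicate 2 the 1 call was PPP1R15A, beside 154 lower and 212 higher over all tested genes. DESeq2 and limma-voom were run on all 6 libraries alone, where they called 9 and 6 lower, and each called 1 higher. DESeq2 called 840 lower and 1278 higher of the 32828 genes entered, and limma-voom 619 and 706 of 15685. Whether the state of leptin replicate 1 plays a part in these counts was not tested.

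**Figure D2:**
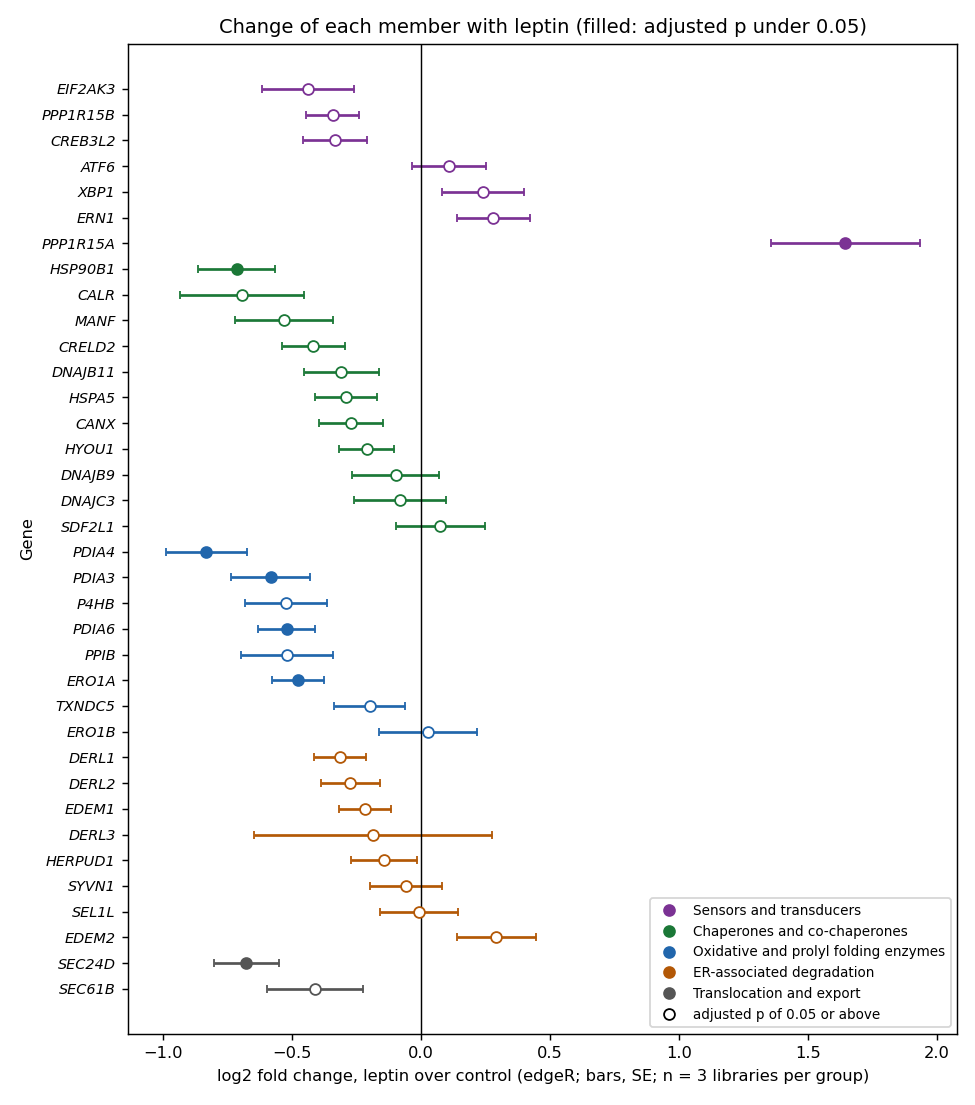
Log2 ratio of leptin to control for each of the 36 genes (points, coloured by role) with its standard error (bars), from edgeR on 3 libraries per group. Filled points passed at an adjusted p under 0.05: 6 lie left of 0 and PPP1R15A lies far to the right, at 1.65.

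Among the sensors and transducers, PPP1R15A was the gene that changed. It encodes the stress-induced regulatory subunit that directs protein phosphatase 1 to eIF2-alpha, and lies on chromosome 19 at 48872212 to 48876059 (hg38, plus strand). Its level was 51.6, 64.4 and 56.0 CPM in the controls and 96.3, 217 and 225 CPM in leptin replicates 1, 2 and 3. Every leptin library lay above every control, and replicate 1 rose least. The mean went from 57.3 ± 6.51 to 179 ± 72.1 CPM (SD, n = 3 each), 3.13-fold, with a log2 ratio of 1.65 ± 0.29 (SE; edgeR adjusted p = 0.0142). The call was lost without Control replicate 1, Control replicate 3, leptin replicate 2 or leptin replicate 3 (edgeR adjusted p = 0.0692, 0.0662, 0.0670 and 0.0537), with log2 ratios between 1.44 and 1.94 over the 6 leave-outs.

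PPP1R15B, the constitutive counterpart of that subunit, did not rise. It stood at 67.6, 63.8 and 63.1 CPM in the controls and at 48.0, 51.1 and 54.5 CPM with leptin, a log2 ratio of -0.34 ± 0.10 (SE; edgeR adjusted p = 0.0602). Within a library the CPM ratio of PPP1R15A to PPP1R15B was 0.763, 1.01 and 0.887 in the controls and 2.01, 4.24 and 4.14 with leptin. This pair was chosen after its values were seen, and the ratio was not tested.

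None of the 3 sensor genes passed. ERN1, which encodes IRE1, stood at 13.9, 14.5 and 17.9 CPM in the controls and at 18.5, 17.9 and 19.8 CPM with leptin. Its groups barely separated, with a log2 ratio of 0.28 ± 0.14 (SE; edgeR adjusted p = 0.229). EIF2AK3, which encodes PERK, stood at 18.6, 17.9 and 15.7 CPM and at 15.3, 9.49 and 13.7 CPM (log2 ratio -0.44 ± 0.18, edgeR adjusted p = 0.140). The lowest leptin value was that of replicate 2, and without replicate 1 the gene was called lower (log2 ratio -0.59, edgeR adjusted p = 0.0152). ATF6 stood at 38.2, 36.7 and 38.7 CPM and at 33.8, 50.1 and 38.8 CPM, so that leptin replicates 1 and 2 lay on opposite sides of the controls (log2 ratio 0.11 ± 0.14, edgeR adjusted p = 0.662).

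XBP1, the transcription factor gene whose messenger IRE1 splices, had the same split. Its total level, spliced and unspliced together, was 116, 115 and 110 CPM in the controls and 99.5, 165 and 138 CPM with leptin. The log2 ratio was 0.24 ± 0.16 (SE; edgeR adjusted p = 0.356), and 0.41 without leptin replicate 1 (edgeR adjusted p = 0.00487). CREB3L2, a membrane-bound transcription factor that raises secretory pathway genes, went from 54.2 ± 4.52 to 43.0 ± 5.66 CPM (SD, n = 3 each; edgeR adjusted p = 0.114), with all leptin libraries below the controls.

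**Figure D3:**
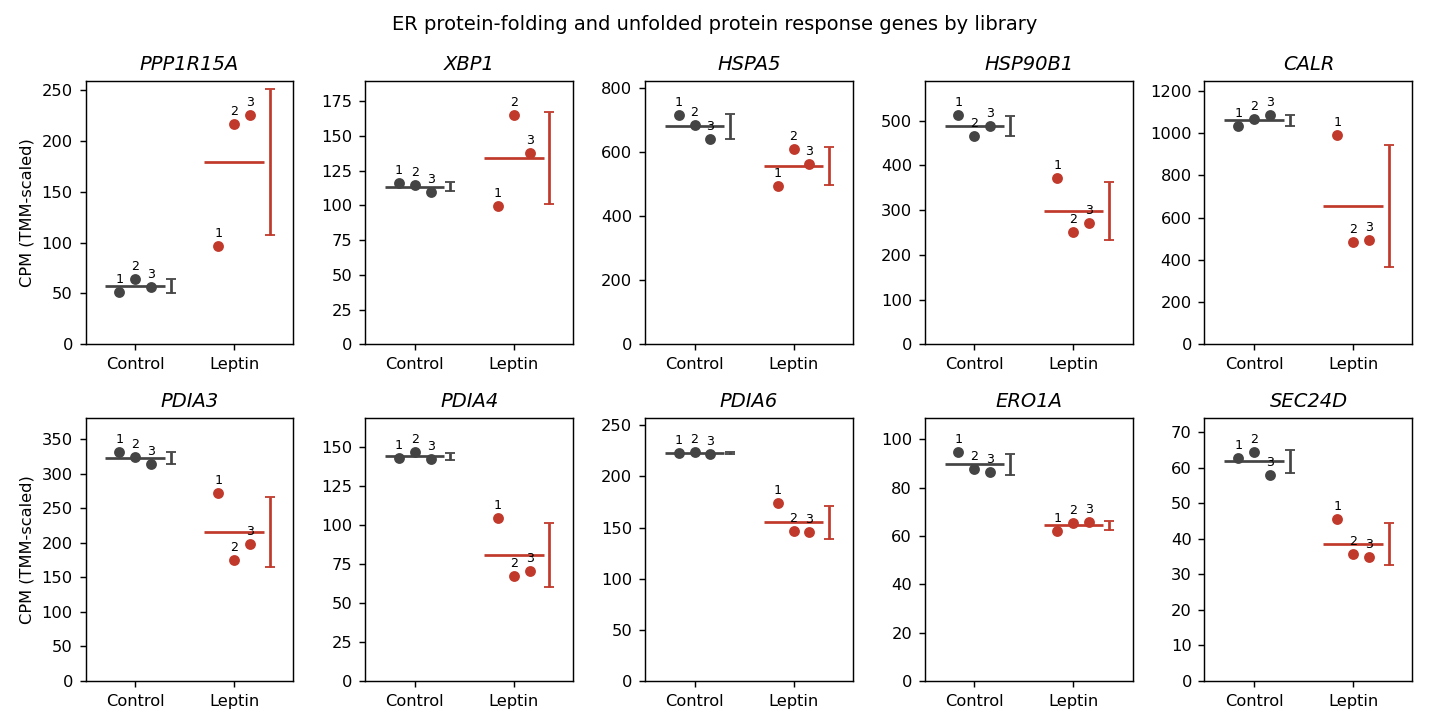
Level of 10 of the genes in each library (points, labelled with the replicate number; CPM on linear axes from 0), with the mean (horizontal line) and its SD (bar) for 3 control and 3 leptin libraries. PPP1R15A lies above the controls in all leptin libraries, XBP1 on both sides, and CALR has leptin replicate 1 at 990 CPM close to the controls and replicates 2 and 3 at 483 and 495 CPM.

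The chaperones fell in 1 of 11 genes, beside 4.09% of all tested genes, and 10 of 11 had a negative log2 ratio, with a median of -0.29. HSPA5 encodes BiP, the HSP70 of the ER, which binds unfolded chains and keeps the sensors inactive, and its messenger is a standard marker of ER stress. Its level was 715, 686 and 640 CPM in the controls and 494, 611 and 563 CPM with leptin. No leptin library reached a control, yet the difference did not pass (log2 ratio -0.29 ± 0.12, SE; edgeR adjusted p = 0.145). HSP90B1 encodes GRP94, the HSP90 of the ER, and lies on chromosome 12 at 103930107 to 103953931 (hg38, plus strand). It stood at 512, 466 and 487 CPM in the controls and at 372, 250 and 271 CPM with leptin. The mean fell by 39.1%, with a log2 ratio of -0.71 ± 0.15 (SE; edgeR adjusted p = 0.0168). The call was lost without any of Control replicates 1, 2 and 3 or leptin replicate 3 (edgeR adjusted p = 0.108, 0.0691, 0.0938 and 0.0834).

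The balance of these 2 chaperones differed among the leptin libraries. The CPM ratio of HSP90B1 to HSPA5 was 0.716, 0.680 and 0.761 in the controls and 0.753, 0.409 and 0.482 in leptin replicates 1, 2 and 3. Replicate 1 lay in the control range and the others below it. This pair too was chosen after its values were seen, and the ratio was not tested.

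Both genes carry the ER stress response element (ERSE) in the bases before their start, the sequence through which ATF6 and XBP1, together with NF-Y, are known to act. The element was searched as CCAAT, any 9 bases and CCACG, on both strands of RefSeq promoter windows that run from 250 bases before to 50 bases after a gene's start (GRCh38.p14). That start is the RefSeq one and can differ from the outer end of the locus in the counted annotation. A stretch before it can thus lie inside the counted locus, as for PPP1R15A, HSP90B1, CRELD2 and CANX. Windows were given for 32 of the 36 genes. Of these, 7 held the element, 21.9%, beside 22 of 27305 genes in all, 0.0806%. It was found for XBP1, HSPA5, HSP90B1, CALR, CANX, CRELD2 and ERO1B. The related element ERSE-II, ATTGG, any 1 base and CCACG, was found for HYOU1, SDF2L1 and HERPUD1, 9.38% of the windows beside 0.0549% of all. The set was listed for its part in ER folding and the unfolded protein response, so these larger shares are not a result of these data. The stretches below show both genes and the other 5 with ERSE. The spacing of 9 bases was set by the search, so only the bases between and around the 2 ends can differ. They read 5′ to 3′ in the direction of the gene, with whole matches in capitals. A match on the opposite strand reads CGTGG first and ATTGG last.
HSPA5: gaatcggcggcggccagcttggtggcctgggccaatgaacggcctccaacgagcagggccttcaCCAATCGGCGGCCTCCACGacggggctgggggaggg
HSP90B1: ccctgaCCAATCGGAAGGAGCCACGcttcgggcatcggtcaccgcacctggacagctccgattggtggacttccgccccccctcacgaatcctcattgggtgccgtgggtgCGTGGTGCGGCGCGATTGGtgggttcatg
XBP1: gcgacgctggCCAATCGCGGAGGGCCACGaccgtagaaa
CANX: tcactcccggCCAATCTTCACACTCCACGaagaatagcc
CALR: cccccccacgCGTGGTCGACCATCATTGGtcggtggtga
CRELD2: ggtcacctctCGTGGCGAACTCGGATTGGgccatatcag
ERO1B: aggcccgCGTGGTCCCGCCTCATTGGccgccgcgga

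The HSPA5 stretch is chr9:125241374-125241473 (minus strand) and the HSP90B1 stretch chr12:103930210-103930349 (plus strand). HSPA5 has 1 whole match, from 66 to 48 bases before the start, and HSP90B1 has 2, from 194 to 176 and, on the opposite strand, from 89 to 71 bases before it. The others are chr22:28800593-28800631 (XBP1, minus), chr5:179698768-179698806 (CANX, plus), chr19:12938374-12938412 (CALR, plus), chr22:49918544-49918582 (CRELD2, plus) and chr1:236282173-236282208 (ERO1B, minus). A match describes these letters only, and other forms of the element were not searched.

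Genes with the element had log2 ratios on both sides of 0, and a common shift was not tested. Of the 10 with ERSE or ERSE-II, 1 was called lower and 0 higher, with log2 ratios from -0.71 to 0.24 and a median of -0.24. Of the 22 with neither in their window, 3 were called lower and 1 higher, with a median of -0.29. Of the 4 with no window given, 2 were called lower. Every leptin library lay below every control in 6 of the 10, 11 of the 22 and 3 of the 4. Over all tested genes this share was 16.2%. Of all 24 tested genes with either element, in or outside the set of 36, 2 were called lower and 0 higher, beside the 4.09% and 5.71% of all genes given above.

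CALR and CANX encode the lectin chaperones calreticulin and calnexin, which hold glycoproteins during folding. CALR stood at 1032, 1068 and 1084 CPM in the controls and at 990, 483 and 495 CPM with leptin. Replicate 1 lay just under the lowest control, and replicates 2 and 3 lay far below. At -0.69 ± 0.24 (SE) on the log2 scale the difference missed the threshold (edgeR adjusted p = 0.0901). It passed without leptin replicate 1 (edgeR adjusted p = 7.42e-07, log2 ratio -1.13) or with a replicate block (0.0412). CANX stood at 698, 659 and 675 CPM and at 528, 643 and 513 CPM (log2 ratio -0.27 ± 0.12, edgeR adjusted p = 0.178). Here replicate 2 lay nearest to the controls.

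None of the other chaperone genes passed. MANF, which encodes a secreted BiP-binding factor, went from 53.7 ± 4.08 to 37.1 ± 11.5 CPM (SD, n = 3 each; edgeR adjusted p = 0.0973). CRELD2, a stress-induced secreted ER protein gene, went from 30.2 ± 1.30 to 22.6 ± 2.33 CPM (edgeR adjusted p = 0.0539). Its leptin libraries all lay below the controls, and it passed once the GC trend was removed (edgeR adjusted p = 0.0404). CRELD2 shares 3.25% of its exon bases with ALG12 on the opposite strand. Over the 6 libraries ALG12 had 2505 counts and CRELD2 2676. HYOU1, of an HSP110-type nucleotide exchange factor for BiP, stood at 220 ± 15.5 and 190 ± 9.56 CPM (edgeR adjusted p = 0.234). The BiP co-chaperones DNAJB9, DNAJB11 and DNAJC3 had log2 ratios of -0.10, -0.31 and -0.08 (edgeR adjusted p = 0.748, 0.198 and 0.806), and those of DNAJB9 and DNAJC3 were 0.03 and 0.05 with the GC trend removed. SDF2L1, a partner of DNAJB11, was the chaperone gene with the highest log2 ratio, 0.07 ± 0.17 (SE; edgeR adjusted p = 0.819). It stood at 32.7, 31.2 and 27.7 CPM in the controls and at 23.6, 32.8 and 40.1 CPM with leptin, a spread wider than the controls in both directions. With the GC trend removed its log2 ratio was -0.37.

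HYOU1 is shown because it holds ERSE-II at 2 places on the opposite strand, from 185 to 175 and from 79 to 69 bases before the start. The first overlaps a match to the UPRE, TGACGTGG, an XBP1 and ATF6 element found in 0.795% of all windows, which runs from 188 to 181 bases before the start, so that the first run of capitals below is both matches together. The stretch is chr11:119057266-119057400 (minus strand), again with whole matches in capitals.
HYOU1: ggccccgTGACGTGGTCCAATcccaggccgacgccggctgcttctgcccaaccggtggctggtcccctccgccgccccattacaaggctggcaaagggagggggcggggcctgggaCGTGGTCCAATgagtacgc

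PPP1R15A, the gene that rose, held neither ERSE nor ERSE-II in its window. It held the palindrome TGACGTCA, the cyclic AMP response element that CREB and ATF family factors are known to bind, from 58 to 51 bases before the start. That element was found in 6.25% of the windows of the set (PPP1R15A and CREB3L2) and in 1.98% of all windows. An ATF4-type element was searched in the same windows and was not found for PPP1R15A. It was found for PPP1R15B and HERPUD1, 6.25% of the windows of the set beside 0.923% of all. The log2 ratios of CREB3L2, PPP1R15B and HERPUD1 were -0.33, -0.34 and -0.14, and none of them was called in edgeR. Whether either element plays a part was not tested. The PPP1R15A stretch is chr19:48872311-48872390 (plus strand). It lies before the RefSeq start but inside the counted locus given above.
PPP1R15A: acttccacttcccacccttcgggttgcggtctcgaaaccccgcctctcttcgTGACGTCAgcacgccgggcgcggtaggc

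Of the 8 genes of oxidative and prolyl folding 4 fell, beside 4.09% of all tested genes, with 7 of 8 log2 ratios negative and a median of -0.52. PDIA4 (ERp72), a disulphide isomerase with several thioredoxin-like domains, had the lowest log2 ratio of the 36 genes. Its locus is on the minus strand of chromosome 7, from 149003062 to 149028662 in hg38. Its level was 143, 147 and 143 CPM in the controls, and 105, 67.5 and 70.8 CPM in leptin replicates 1, 2 and 3. All leptin libraries lay below the controls, and the controls agreed closely. The mean fell by 43.9% (log2 ratio -0.83 ± 0.16, SE; edgeR adjusted p = 0.0114). The ratio of PDIA4 to HSPA5 was 0.201, 0.214 and 0.223 in the controls and 0.212, 0.110 and 0.126 with leptin, a pair chosen after its values were seen.

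PDIA6 (P5), which joins BiP in folding complexes, stood at 223, 224 and 222 CPM in the controls and at 174, 146 and 146 CPM with leptin. The mean fell by 30.3% (log2 ratio -0.52 ± 0.11, SE; edgeR adjusted p = 0.0175). PDIA3 (ERp57), the isomerase that works with calnexin and calreticulin on glycoproteins, stood at 331, 323 and 313 CPM and at 272, 175 and 199 CPM. The mean fell by 33.3% (log2 ratio -0.58 ± 0.15, SE; edgeR adjusted p = 0.0387). ERO1A, the oxidase that recharges disulphide isomerases, stood at 94.7, 87.8 and 86.3 CPM and at 62.1, 65.2 and 65.9 CPM. Its leptin libraries lay close together, and the mean fell by 28.1% (log2 ratio -0.48 ± 0.10, SE; edgeR adjusted p = 0.0173). PDIA6 lies on chromosome 2 at 10783391 to 10837977, PDIA3 on chromosome 15 at 43746394 to 43773279 and ERO1A on chromosome 14 at 52639915 to 52695900.

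These calls depended on single libraries. PDIA4 lost its call without any of Control replicates 1, 2 and 3 or leptin replicate 3 (edgeR adjusted p = 0.0745, 0.0594, 0.0686 and 0.0641), and so did PDIA6 (0.111, 0.0866, 0.104 and 0.0719) and ERO1A (0.128, 0.0794, 0.0938 and 0.0559). PDIA3 was lost in those 4 (0.169, 0.128, 0.138 and 0.139) and without leptin replicate 2 (0.0838). With the GC trend removed PDIA4 and PDIA6 were called, while PDIA3 and ERO1A were not (edgeR adjusted p = 0.0825 and 0.0599).

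P4HB, the gene of the founding disulphide isomerase and the member with the highest CPM, stood at 1215, 1358 and 1340 CPM in the controls and at 1146, 827 and 752 CPM with leptin. The difference of -0.52 ± 0.16 (SE, log2) missed the threshold (edgeR adjusted p = 0.0612) and met it with the GC trend removed (0.0339). PPIB, which encodes cyclophilin B, a prolyl isomerase, stood at 127, 131 and 148 CPM and at 128, 76.7 and 78.6 CPM. Leptin replicate 1 lay within the controls and the groups overlapped (log2 ratio -0.52 ± 0.18, SE; edgeR adjusted p = 0.0881). ERO1B, the second oxidase gene, had the highest log2 ratio of this class, 0.03 ± 0.19 (SE; edgeR adjusted p = 0.947). It stood at 8.44, 10.8 and 7.02 CPM and at 8.99, 9.56 and 8.2 CPM, inside the range of the controls, and its sign turned with library totals alone as scaling (log2 ratio -0.02). TXNDC5, an isomerase gene, stood at 16.9 ± 1.82 and 14.7 ± 0.717 CPM (edgeR adjusted p = 0.385). Of its exon bases 61.1% are shared with other annotated genes, chiefly the readthrough gene BLOC1S5-TXNDC5 on the same strand, so its count is uncertain. PPIB and PDIA6 share 26.6% and 25.2% of exon bases with genes on the opposite strand, SNX22 and ATP6V1C2. Over the 6 libraries these partners had 304 and 69 counts, beside 11660 for PPIB and 19182 for PDIA6.

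The 8 genes of ER-associated degradation, the route that returns misfolded proteins to the cytosol for the proteasome, gave 0 calls in edgeR, limma-voom and DESeq2. Over all tested genes edgeR called 4.09% lower and 5.71% higher, so 0 of 8 does not set this class apart. At an unadjusted edgeR p under 0.05 there were 2, DERL1 and DERL2, beside 4334 of all 15685 tested genes. The log2 ratios of the 8 ran from -0.31 to 0.29, with a median of -0.17. DERL1, which encodes derlin-1, a part of the membrane channel for export, was the lowest. It stood at 76.0, 68.1 and 72.6 CPM in the controls and at 58.9, 56.3 and 59.3 CPM with leptin. Its groups did not overlap, and the adjusted p from edgeR was 0.0732 (log2 ratio -0.31 ± 0.10, SE). It passed without leptin replicate 1 (edgeR adjusted p = 0.0211).

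EDEM2, which encodes a lectin-like mannosidase family protein that marks glycoproteins for degradation, was the highest of the class. It stood at 22.6, 25.8 and 20.8 CPM and, with leptin, at 33.3, 28.4 and 23.0 CPM. Leptin replicate 3 lay within the controls (log2 ratio 0.29 ± 0.15, SE; edgeR adjusted p = 0.246). Its relative EDEM1 went from 106 ± 4.87 to 91.4 ± 4.70 CPM (SD, n = 3 each; edgeR adjusted p = 0.191), with the leptin libraries all lower.

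SEL1L and SYVN1 encode the adaptor and the ubiquitin ligase (HRD1) of 1 complex, and their leptin libraries were ordered in opposite ways. SEL1L stood at 61.4, 61.2 and 60 CPM in the controls and at 46.1, 73.4 and 62.1 CPM with leptin. SYVN1 stood at 58.7, 62.7 and 63.0 CPM and at 71.4, 48.3 and 57.3 CPM. The means thus hardly moved (edgeR adjusted p = 0.980 and 0.826), while the leptin libraries spread on both sides of the controls. The sign for SEL1L, at a log2 ratio of -0.01, turned with the GC trend removed (0.12) and without leptin replicate 1, and that for SYVN1 without leptin replicate 2. SYVN1 shares 9.99% of its exon bases with other annotated genes, chiefly MRPL49 on the opposite strand. Over the 6 libraries MRPL49 had 14578 counts and SYVN1 6100. HERPUD1, a membrane scaffold gene of the same complex, stood at 86.8 ± 6.04 and 78.6 ± 11.9 CPM (SD, n = 3 each; edgeR adjusted p = 0.510). DERL3, the derlin of secretory cells, had 17, 9 and 15 counts in the controls and 15, 11 and 8 with leptin. Of its exon bases 77.0% lie over SMARCB1 on the opposite strand, so these few counts are uncertain.

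Both genes of translocation and export had a log2 ratio below 0. SEC24D encodes a cargo-binding subunit of the COPII coat, which forms the vesicles that leave the ER, and lies on chromosome 4 at 118722823 to 118838683. It stood at 62.8, 64.4 and 58.0 CPM in the controls and at 45.5, 35.6 and 34.7 CPM with leptin. All leptin libraries lay well below the controls, and the mean fell by 37.5% (log2 ratio -0.68 ± 0.13, SE; edgeR adjusted p = 0.0113). The call was lost without any of Control replicates 1, 2 and 3 or leptin replicate 3 (edgeR adjusted p = 0.0826, 0.0656, 0.0597 and 0.0588). SEC61B, a small subunit of the channel that passes new chains into the ER, stood at 91.5, 87.1 and 90.1 CPM and at 80.9, 44.4 and 77.0 CPM. Leptin replicate 2 was far lower than the others (log2 ratio -0.41 ± 0.19, SE; edgeR adjusted p = 0.181).

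For a rough order of levels between genes, CPM was divided by the length of all annotated exons joined. This is not the length of a transcript: for HSPA5 it is 6530 bases, its whole locus, while it is 2802 for CALR and 11132 for P4HB, so the order depends on the annotation. On this scale, per kilobase of exon, CALR stood highest at 379 CPM in the control mean and 234 CPM in the leptin mean. P4HB followed at 117 and 81.6 CPM and HSPA5 at 104 and 85.1 CPM, the reverse order in the leptin means. This order was not tested. The sensor genes lay near the bottom, ATF6 at 2.65 CPM per kilobase in controls, EIF2AK3 at 0.840 and ERN1 at 0.805. DERL3 was the lowest at 0.207. PPP1R15A was 16th of 36 in controls at 16.7 CPM per kilobase and stood at 52.2 with leptin. In controls PPP1R15B was at 6.95.

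**Figure D4:**
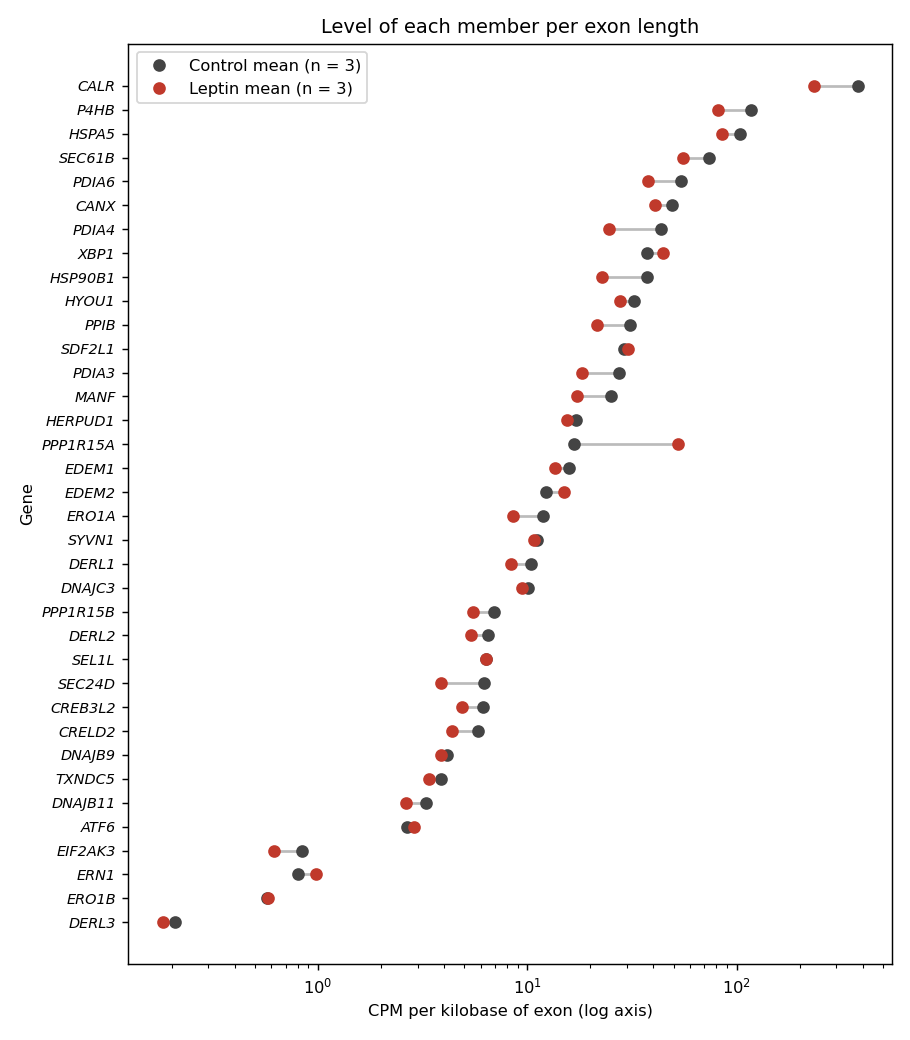
Mean level of each of the 36 genes in controls (black points) and with leptin (red points), 3 libraries each, in CPM per kilobase of exon on a log axis, ordered by the control level. The longest step to the right is PPP1R15A, from 16.7 to 52.2, and the sensors EIF2AK3 and ERN1 lie below 1.

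Other ER genes were taken from 5 lists outside the set. Of 112 tested, 4 rose and 4 fell, which is no larger a share than the 5.71% and 4.09% of all tested genes, and the median log2 ratio was -0.08. The COPII list was nearest to the set in its median, -0.25 over 15 genes, with 2 called lower. These were SEC23A, a partner of SEC24D in the inner coat, from 92.4 to 65.8 CPM (edgeR adjusted p = 0.0202), and the cargo receptor gene TMED10, from 168 to 124 CPM (0.0226). In translocation SPCS3, a signal peptidase subunit gene, fell from 124 to 80 CPM (edgeR adjusted p = 0.0105), and DNAJC1 rose from 32.0 to 51.3 CPM (0.0402). In folding and glycosylation RPN2, of the oligosaccharyltransferase, fell from 288 to 214 CPM (edgeR adjusted p = 0.0260), and FKBP10, a prolyl isomerase gene at a low level, rose from 0.235 to 1.30 CPM (0.0335). In ER-associated degradation UBXN6 rose from 227 to 367 CPM (edgeR adjusted p = 0.0189) and RNF185 from 53.0 to 69.3 CPM (0.0411). Without Control replicate 1, 2 or 3 or leptin replicate 3 these lists held 0 calls in edgeR, and with the GC trend removed 3. In the same order those fits called 60, 154, 89, 121 and 442 lower over all tested genes. They called 55, 212, 81, 147 and 426 higher, of 15685 to 16275 genes tested. The log2 ratio of UBXN6 went from 0.69 to 0.33 with the GC trend removed (edgeR adjusted p = 0.116), and SEC23A, TMED10, DNAJC1 and FKBP10 lost their calls there too (0.0740, 0.0704, 0.0559 and 0.0579). With a replicate block RPN2 and RNF185 were not called (edgeR adjusted p = 0.0559 and 0.0724). Of 21 other regulators of the response 0 were called in edgeR, DESeq2 or limma-voom, beside 4.09% lower and 5.71% higher over all genes in edgeR. In edgeR 2 of the 21 were at an unadjusted p under 0.05, beside 4334 of all 15685 tested genes. NFYA, an NF-Y subunit gene, had the smallest p of the 21 (32.6 and 26.2 CPM, edgeR adjusted p = 0.120).

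Targets of the PERK and ATF4 branch, formed a list of 24 genes outside the set. All 24 had a log2 ratio above 0, 14 rose and 0 fell, and the median was 0.68. Over all tested genes 5.71% were called higher and 4.09% lower. In 16 every leptin library lay above every control, beside 16% of all tested genes. ATF4 itself, the transcription factor of the branch, stood at 440, 494 and 459 CPM in the controls and at 606, 754 and 860 CPM with leptin (log2 ratio 0.67 ± 0.14, SE; edgeR adjusted p = 0.0166). The other 3 targets with the smallest adjusted p were DDIT4, an mTORC1 inhibitor gene, from 214.6 to 569.8 CPM, the amino acid transporter subunit gene SLC3A2, from 627.7 to 1240.05 CPM, and STC2, of a secreted glycoprotein, from 7.11 to 22.8 CPM (edgeR adjusted p = 0.00487, 0.0143 and 0.0163). DDIT3, which encodes the stress factor CHOP and was singled out after its values were seen, stood at 22.9, 25.2 and 18.5 CPM and at 36.4, 74.9 and 105 CPM (log2 ratio 1.70 ± 0.35, SE; edgeR adjusted p = 0.0252). In ATF4 and DDIT3 leptin replicate 1 was the lowest leptin library and still above the controls, the order seen for PPP1R15A. The ATF4 call was lost without Control replicates 1, 2 or 3 or leptin replicate 3 (edgeR adjusted p = 0.119, 0.0713, 0.108 and 0.0670). DDIT3 was lost without Control replicates 1, 2 or 3 or leptin replicate 2 (0.107, 0.0687, 0.103 and 0.0989). SLC3A2 and STC2 kept their calls in 1 of the 6 leave-outs, the one without leptin replicate 1. In the other 5 the adjusted p ran from 0.0569 to 0.104 for SLC3A2 and from 0.0561 to 0.0923 for STC2, and limma-voom on all libraries gave 0.0611 for STC2. DDIT4 was lost without Control replicate 1 (0.0537). With the GC trend removed 11 of the 24 were called higher, beside 2.72% of all tested genes.

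Chaperones of the cytosol serve proteins outside the ER. Of 20 listed, 10 fell and 0 rose, beside 4.09% and 5.71% of all tested genes. In 19 the log2 ratio was below 0, and the median was -0.50. HSP90AA1 and HSP90AB1, the cytosolic relatives of HSP90B1, went from 1225 to 536.5 CPM and from 1411 to 810.1 CPM (edgeR adjusted p = 0.00700 and 0.00487). HSPH1, a nucleotide exchange factor gene like HYOU1, went from 130.2 to 64.5 CPM (edgeR adjusted p = 0.00325). HSPE1, a mitochondrial co-chaperonin gene kept on that list, went from 53.5 to 31.5 CPM (edgeR adjusted p = 0.0189). The HSPH1 call held in all 6 leave-outs, at adjusted p between 4.48e-07 and 0.0362, and the calls of the 2 HSP90 genes were lost without Control replicate 1 (0.0547 and 0.0563), that of HSP90AA1 also without Control replicate 3 (0.0544). HSPE1 was lost without Control replicates 1, 2 or 3 or leptin replicate 3 (edgeR adjusted p = 0.113, 0.0689, 0.0938 and 0.0726). Whether the shares of these lists differ from those of the ER genes was not tested.

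**Figure D5:**
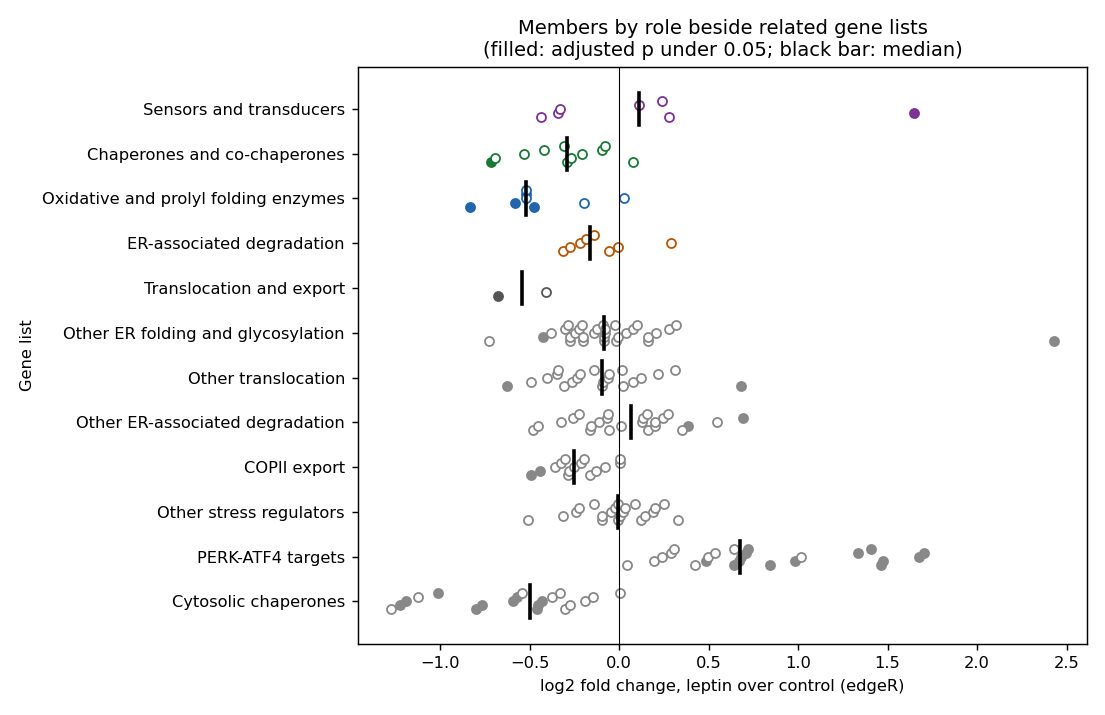
Log2 ratio of leptin to control (x axis, edgeR) for each tested gene of the 5 roles of the set (coloured) and of 7 related lists (grey). Filled points passed at an adjusted p under 0.05, and black bars are medians: -0.52 for oxidative and prolyl folding enzymes, 0.68 for PERK and ATF4 targets and -0.50 for cytosolic chaperones.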

How the data were processed

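RNA of OVCAR8 cells was sequenced from directional libraries as read pairs, per the labels' protocols. The deposited files hold whole-number counts per gene, made by the authors with featureCounts 2.0.1 on the GENCODE 44 annotation, per the file headers. The submitters' processing notes name HISAT2 2.0.5, featureCounts 1.5.0-p3, DESeq2 and hg38. Exon lengths, all annotated exons joined, are a column of the same files. Totals ran from 15609425 to 18577775 counts, and intervals cover counting and library spread only.

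Genes passing edgeR's filter (minimum count 10, minimum total 15) were fitted with TMM scaling and the robust quasi-likelihood test (edgeR 4.0.16, R 4.3.3), all 6 libraries, no covariate, with Benjamini-Hochberg adjustment. Alternatives were DESeq2 1.42.0, limma-voom (limma 3.58.1), other scalings, no filter, a threshold of 0.01, a replicate block, GC trends removed per library (lowess, span 0.3) and leaving out each library. Differences per library used log2(CPM + 0.1). Standard errors of edgeR log2 ratios are the absolute ratio divided by the square root of the quasi-likelihood F statistic. They are therefore not independent of the p-values. Same-numbered libraries deviated with correlations of -0.05, 0.01 and -0.11 over genes, so no pairing by number was seen. With 3 libraries per group, and leptin replicate 1 apart from the others, this cannot exclude a pairing.

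The genes and lists were chosen with earlier results of these data known. Values for every library are given for called genes, the 3 sensors, XBP1, HSPA5 and the highest and lowest gene of each role, and further members where their libraries differ. In other lists up to 4 called genes, or the one with the smallest p, are named. DDIT3 was added to these after its values were seen. Promoter windows came from RefSeq (GRCh38.p14), the first listed per symbol. Protein ends were not analysed here.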

Additional observations from a re-analysis of the deposited data

How the results depend on the processing

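Of the 36 genes 6 were called lower and 1 higher. With no low-count filter 11 were lower and 1 higher, beside 959 and 1478 of all 32828 tested genes. With a replicate block 8 were lower (adding CALR and MANF) and 1 higher, beside 535 and 768 of all 15685. At an adjusted p under 0.01 in edgeR 0 were lower and 0 higher. At an unadjusted p under 0.05 there were 19, beside 4334 of all 15685 tested genes. Leaving out 1 library gave 0 to 16 lower and 0 to 2 higher. Over all tested genes the leave-outs called 60 to 2178 lower and 55 to 2583 higher. Limma-voom called 619 lower and 706 higher over all genes, and DESeq2 840 and 1278. With the GC trend removed edgeR called 442 and 426, and with block and GC together 477 and 465. No count over all tested genes was made at 0.01. The set's median log2 ratio stayed below 0 in every setting run for it. Other ER genes (8 called) gave 14 without the filter, 15 with DESeq2, 3 with the GC trend removed, 3 with block and GC together, 7 with the replicate block, 0 at 0.01 (33 at an unadjusted p under 0.05) and 0 to 39 in the leave-outs. PERK and ATF4 targets (14 called) gave 8 with limma-voom, 12 with the replicate block, 1 at 0.01 and 0 to 20 in the leave-outs. Cytosolic chaperones (10 called) gave 7 with the replicate block, 3 at 0.01 and 1 to 16 in the leave-outs. The sign turned for SDF2L1 with the GC trend removed (-0.37), also with the block (-0.38), and it ran from -0.12 to 0.25 in the leave-outs. It turned for ERO1B with library totals only (-0.019; leave-outs -0.11 to 0.20) and for ATF6 without leptin replicate 2 (-0.064; leave-outs -0.064 to 0.22). Further members near 0 also turned: DNAJB9, DNAJC3 and SEL1L with the GC trend removed, DNAJC3 and SEL1L without leptin replicate 1, DNAJB9 and SYVN1 without leptin replicate 2, and DERL3 without leptin replicate 3. The cause was not tested. Scaling by library totals moved the median of all genes to -0.04. DERL3 had the fewest counts of the set, 8 to 17 a library, and its standard error was 0.46 on the log2 scale.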

Other observations

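Other marker genes of the line gave values that belong to no comparison above. KRT19, a keratin of simple epithelia, fell from 102 to 38.7 CPM (edgeR adjusted p = 0.000139), and KRT7 stood at 332 and 547 CPM. Of 9 fibroblast markers 7 were tested and 0 were called in edgeR, DESeq2 or limma-voom. Over all tested genes edgeR called 4.09% lower and 5.71% higher. In edgeR 4 of these were at an unadjusted p under 0.05, beside 4334 of all 15685 tested genes. COL1A1, whose product is a major client of the ER, stood at 562 and 421 CPM. The complement gene CFD, on the adipocyte list, rose from 23.5 to 43.4 CPM (edgeR adjusted p = 0.0388). This call was lost with the GC trend removed (0.156, log2 ratio from 0.89 to 0.44), with a replicate block (0.0561), in limma-voom (0.0686) and in 5 of 6 leave-outs (0.109 to 0.168).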
